A study of Mus musculus with 2 samples.

Results

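Of 5333 donor T cells kept from mouse colons in graft-versus-host disease, 424 carried exactly 1 productive T cell receptor beta chain (TRB) and 2 different productive alpha chains (TRA). They are called 2-TRA cells here and are set against the 2185 cells with 1 TRB and 1 TRA, called 1-TRA cells. A cell was kept if it held 500 or more detected genes and at most 10% of its UMIs (unique molecular identifiers, each counting 1 captured transcript) in mitochondrial genes, and chains were told apart by the nucleotide sequence of the third complementarity-determining region (CDR3). 2-TRA cells were 16.3% of the 2609 cells of both kinds (exact Clopper-Pearson 95% interval 14.9 to 17.7).

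The cells came from lethally irradiated Balb/c recipients that had been given 5000000 bone marrow cells from C57BL/6 donors together with splenocytes that included 800000 alpha beta T cells. On day 21 the colons of 5 recipients were digested and pooled, and donor T cells, positive for H2-Kb and for the TCR beta chain, were sorted together into 1 droplet run. A 5′ RNA library and a TCR library were made from the same cDNA, so both kinds of cell share strain, graft, day, pool, sort and library. The 5 recipients cannot be told apart in the pool, so the recipient of a cell or clone is not known. With 1 pool there is no replicate: cells are not replicates, no test was run, and the intervals given cover counting error only.

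The T cell receptor beta locus is normally held to 1 productive allele per cell. The alpha locus is not: both alleles rearrange in the same thymocyte, and each can go on joining upstream V segments to downstream J segments until a receptor is positively selected or the cell dies. A mature T cell can therefore keep a second in-frame alpha chain, or a second alpha rearrangement that is out of frame. T cells with a second alpha chain have long been of interest in alloreactivity, because only 1 of the receptors needs to have been positively selected.

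The markers fitted the sort: all 424 2-TRA cells and 2184 of the 2185 1-TRA cells held a Cd3d, Cd3e or Cd3g UMI, which encode the CD3 signalling chains. The deposited titles name CD4 T cells, but both lineages were present among 2-TRA and 1-TRA cells. The 5333 kept cells, of 5348 barcodes, held a median of 4800 UMIs, and 5133 of them had a contig in the TCR table. The remaining kept cells were 232 with 2 or more TRB, 716 with a TRB and no TRA, 19 with 1 TRB and 3 or more TRA, 1106 with TRA and no TRB, and 651 with no productive chain.

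The same TRB and the same pair of TRA were found again and again in separate droplets, and those sets carry the main result. A set is 1 TRB with both its TRA, and a set is called recurring if 2 or more kept cells held it. The CDR3 sequences below are those of set 1 (88 cells), set 2 (46 cells), set 5 (15 cells, both TRA from the TRAV13 family) and set 12 (5 cells, both TRA from the same J segment). For each TRA of set 5 its cells gave 2 V segment names, of which 1 is shown. They run 5′ to 3′ as read in the TCR library, and capitals mark bases found neither in a germline V segment of the named family nor in the named J segment of the GENCODE M21 mouse transcripts. TRB sequences are encoded on chromosome 6 and TRA sequences on chromosome 14.
set 1 TRB (TRBV13-1, TRBJ2-5): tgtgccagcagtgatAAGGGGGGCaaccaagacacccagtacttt
set 1 TRA 1 (TRAV6D-7, TRAJ35): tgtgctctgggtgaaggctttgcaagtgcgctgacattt
set 1 TRA 2 (TRAV8-1, TRAJ22): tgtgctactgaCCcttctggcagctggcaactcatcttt
set 2 TRB (TRBV3, TRBJ2-3): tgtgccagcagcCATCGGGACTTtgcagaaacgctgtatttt
set 2 TRA 1 (TRAV3D-3, TRAJ21): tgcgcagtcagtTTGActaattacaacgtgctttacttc
set 2 TRA 2 (TRAV14-2, TRAJ26): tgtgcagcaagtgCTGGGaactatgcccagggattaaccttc
set 5 TRB (TRBV13-3, TRBJ2-4): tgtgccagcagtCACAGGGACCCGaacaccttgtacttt
set 5 TRA 1 (TRAV13D-2, TRAJ37): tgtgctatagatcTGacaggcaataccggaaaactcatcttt
set 5 TRA 2 (TRAV13D-2, TRAJ17): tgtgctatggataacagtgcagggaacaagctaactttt
set 12 TRB (TRBV4, TRBJ2-1): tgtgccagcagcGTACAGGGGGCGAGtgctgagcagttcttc
set 12 TRA 1 (TRAV12N-3, TRAJ15): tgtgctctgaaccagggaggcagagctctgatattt
set 12 TRA 2 (TRAV6N-6, TRAJ15): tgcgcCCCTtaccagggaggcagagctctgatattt
TRA 1 is the chain with the higher median UMI count in the set. Several of these TRA joined V to J with no base outside the germline matches (set 1 TRA 1, set 5 TRA 2 and set 12 TRA 1). Each of the 4 TRB held 9 to 14 such bases. A TRB also uses a D segment, which was not matched, so TRB and TRA are not compared on this count.

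The 424 2-TRA cells fell into 180 sets, and 30 recurring sets held 274 of the cells, or 64.6% (59.9 to 69.2). The other 150 cells each had a set seen once. Set 1 was a CD8 set, with 87 of its 88 cells in the CD8 class and 1 with transcripts of both lineages. Set 2 was a CD4 set, with 31 cells in the CD4 class, 3 with transcripts of both lineages and 12 with neither. Sets 3, 4 and 5 held 25, 18 and 15 cells, all of them with CD4-class cells and none with CD8-class cells. Sets 6, 7 and 8, CD4 sets as well, held 8, 6 and 6 cells. The 3 largest sets held 37.5% (32.9 to 42.3) of all 2-TRA cells.

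The share of cells with a second TRA differed between clones. A clone is the set of cells with the same TRB (V, J and CDR3 nucleotides), and the kept cells with 1 TRB formed 824 clones. In 47 clones 10 or more cells had 1 or 2 TRA. In 17 of them no cell had 2 TRA, in 25 up to 22.2% of the cells did, and in 5 between 41.5% and 91.7% did. No clone lay between these last 2 ranges.

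The clone of set 1 had 88 2-TRA cells among 96 cells with 1 or 2 TRA. In the clone of set 2 the count was 47 of 61, in that of set 3 it was 25 of 36, in that of set 4 it was 18 of 24, and in that of set 5 it was 17 of 41. Together these 5 clones had 195 2-TRA cells among 258, or 75.6%, against 52 among 1313, or 3.96% (2.97 to 5.16), in the other 42 clones. Of the 5 clones, 4 were CD4 clones (of 27 measured) and 1 was a CD8 clone (of 20).

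**Figure D1:**
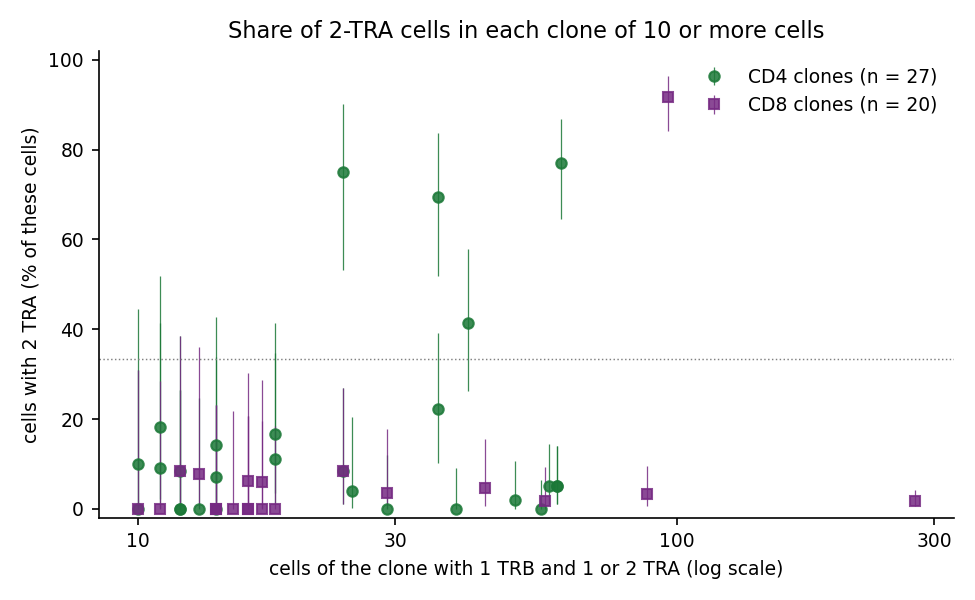
Percent of 2-TRA cells (vertical axis) in each of the 47 clones with 10 or more cells that had 1 or 2 TRA, against the number of those cells (horizontal axis, log scale). Circles are CD4 clones, squares are CD8 clones, bars are exact 95% intervals, and the dotted line marks 33.3%. The 5 clones above the line run from 41.5% to 91.7%, and the other 42 lie at 22.2% or lower.

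Clones without a second productive TRA often had an alpha rearrangement that was not marked productive. Among the 42 clones with few 2-TRA cells, 22 had the same V and J in a TRA contig not marked productive in at least 33.3% of their cells, against 0 of the 5 clones with many. In the largest clone, of 297 cells with 289 in the CD8 class, 5 of 276 cells had 2 TRA and 94.6% had the same such contig. Per cell, a TRA contig not marked productive was found in 1.46% (0.399 to 3.70) of recurring 2-TRA cells, 26% (19.2 to 33.8) of 2-TRA cells with a set seen once, and 44.1% (42.0 to 46.2) of 1-TRA cells. A cell has 2 alpha alleles, so 2 productive TRA leave none for a rearrangement that is not productive. The contrasts between 2-TRA and 1-TRA cells, and between the 5 and the 42 clones, are thus largely set by definition. The cells with a set seen once stood between recurring 2-TRA cells and 1-TRA cells.

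By lineage, 2-TRA cells were 17.2% (14.8 to 19.9) of the 882 cells in the CD4 class, which had a Cd4 UMI and no Cd8a or Cd8b1 UMI. They were 13.3% (11.5 to 15.3) of the 1263 cells in the CD8 class, which had UMIs of Cd8a or Cd8b1 but none of Cd4. The 2 intervals overlapped. The share in the CD8 class depended on 2 clones: it was 6.93% (5.55 to 8.55) without the clone of set 1 and 16.5% (14.2 to 18.9) without the largest clone. The CD4 class gave 17.2% and 17.3% under the same omissions. With 1 cell per clone, 2-TRA cells were 17.1% (12.6 to 22.5) of the CD4 class and 12.6% (8.96 to 17.1) of the CD8 class.

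Cells with transcripts of both lineages had the highest share of 2-TRA cells, 35.7% (27.4 to 44.7) of 126. In cells with neither it was 17.5% (13.6 to 21.9) of 338. The excess lay in sets seen once: these were 27.8% (20.2 to 36.5) of the cells with both lineages, 5.90% of the CD4 class and 3.8% of the CD8 class. Recurring sets were 7.94% (3.87 to 14.1) of the cells with both lineages, 11.3% of the CD4 class and 9.50% of the CD8 class.

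Depth was read as the measure that 2 cells in 1 droplet would raise. 2-TRA cells held a median of 6605.5 RNA UMIs (6184 to 7005), against 5035 (4894 to 5181) in 1-TRA cells, a ratio of 1.31 (1.19 to 1.43). The median was 6368 in recurring 2-TRA cells, 7501.5 in those with a set seen once, and 7867.5 in cells with 2 or more TRB. The ratio to 1-TRA cells was 1.14 (1.02 to 1.37) within the CD4 class and 1.47 (1.26 to 1.79) within the CD8 class.

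Deeper cells more often showed a second TRA. Over 5 equal bins of RNA depth, from low to high, 2-TRA cells made up 7.84%, 12.5%, 16.0%, 18.6% and 26.4% of the cells. Recurring sets alone went from 4.97% in the lowest bin to 15.9% in the highest, and sets seen once from 2.87% to 10.5%. The detected share of 2-TRA cells is therefore a share at this depth, and a missed second chain and a missing one cannot be told apart in a single cell.

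**Figure D2:**
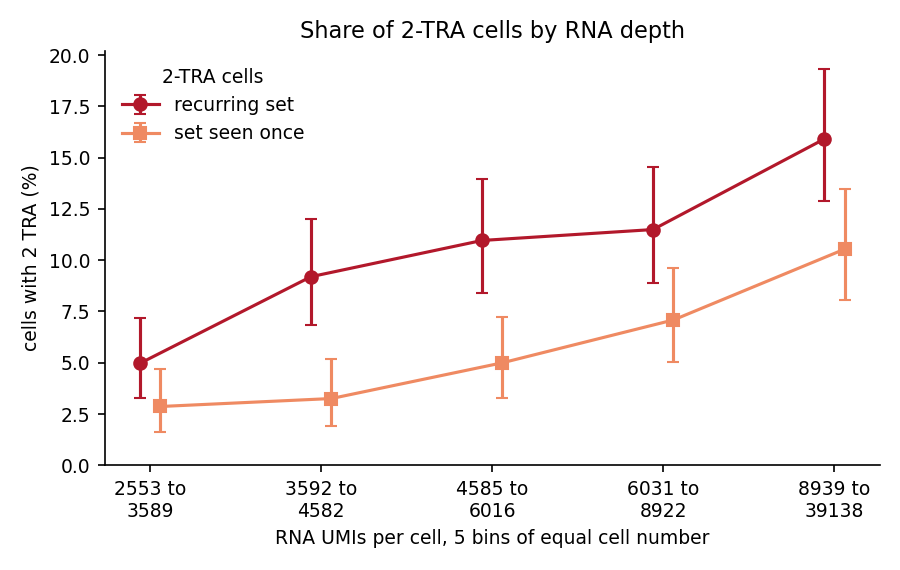
Percent of 2-TRA cells (vertical axis) in 5 bins of RNA UMIs per cell with about equal cell numbers (horizontal axis), for recurring sets (circles) and sets seen once (squares), with exact 95% intervals. Both lines climb with depth, to 15.9% for recurring sets and 10.5% for sets seen once in the deepest bin.

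A depth gap was also found when the clones of recurring sets were pooled. In the clones of the 30 recurring sets, the 274 recurring 2-TRA cells held a median of 6368 RNA UMIs, against 4758 in the 152 1-TRA cells, a ratio of 1.34 (1.09 to 1.58). The 1-TRA cells came from 17 of the 30 clones, and the clone of set 1 gave 88 of the 274 and 8 of the 152 cells. Clone by clone, the median was higher in the 2-TRA cells of the set in 14 of 17 and lower in 3, among them set 3 (5165 against 5216) and set 8 (6003 against 6286.5). The TRB contig had a median of 14 UMIs in those 2-TRA cells and 9 UMIs in those 1-TRA cells. The single TRA of the 1-TRA cells was 1 of the recurring TRA in 151 of 152 cells. In the clone of set 1, for example, 6 of the 8 1-TRA cells had TRA 1 alone and 1 had TRA 2 alone.

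Recurring sets and sets seen once parted on lineage transcripts. Cd4 together with Cd8a or Cd8b1 transcripts were found in 3.65% (1.76 to 6.61) of recurring 2-TRA cells, 23.3% (16.8 to 30.9) of 2-TRA cells with a set seen once, and 3.71% (2.95 to 4.59) of 1-TRA cells. In cells with 2 or more TRB the share was 34.1% (28.0 to 40.5). After each cell was thinned to 2000 UMIs, which no kept cell fell short of, these shares were 0.365%, 6.00%, 0.778% and 10.8%, in the same order of groups. Recurring 2-TRA cells thus stood with 1-TRA cells on this measure, and cells with a set seen once stood between them and cells with 2 or more TRB.

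**Figure D3:**
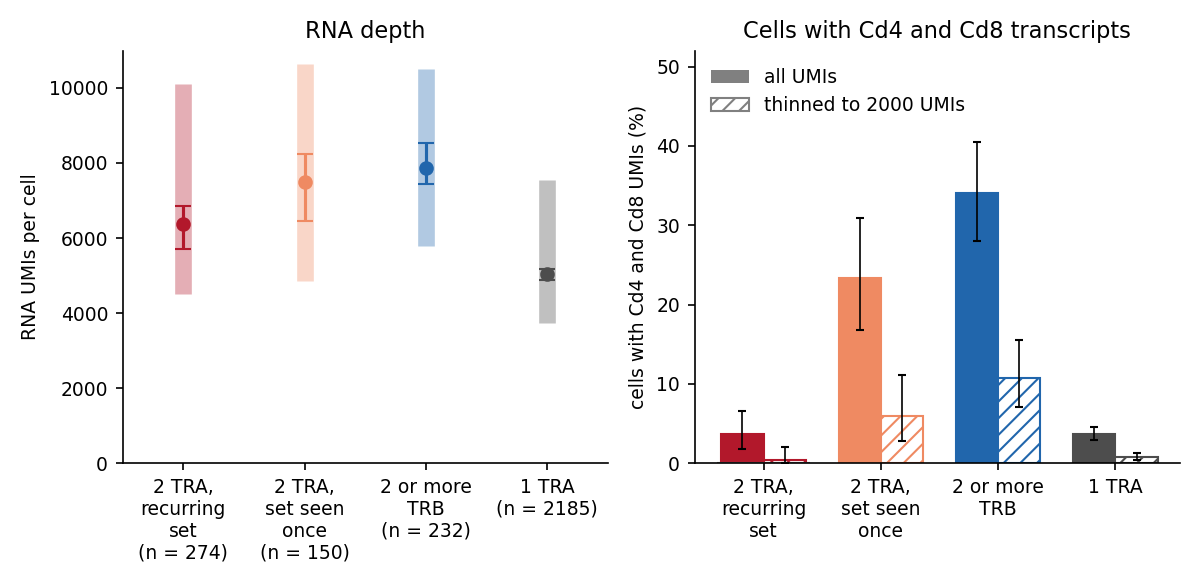
Left, RNA UMIs per cell as the median (point) with its exact 95% interval (bar) and the middle 50% of cells (pale band), for recurring 2-TRA cells, 2-TRA cells with a set seen once, cells with 2 or more TRB and 1-TRA cells. Right, percent of cells with both Cd4 and Cd8a or Cd8b1 UMIs, from all UMIs (filled) and after thinning to 2000 UMIs (hatched), with exact 95% intervals. The share in recurring 2-TRA cells is 3.65%, close to the 3.71% of 1-TRA cells, and it is 23.3% where the set was seen once.

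Some alpha chains were also those of other clones. A TRA seen once with the cell's own TRB, but the commonest TRA of another clone, was found in 57 of 150 2-TRA cells with a set seen once, or 38.0% (30.2 to 46.3), and in 32 of 2185 1-TRA cells, or 1.46% (1.0 to 2.06). By definition no recurring 2-TRA cell can hold such a TRA, because its TRA are seen more than once with its TRB, so those cells are not compared on it. Recurring sets could still share a TRA with another clone. TRA 1 of set 30 had the CDR3 of TRA 2 of set 8, which 22 1-TRA cells of the set 8 clone held. Both cells of set 30 had transcripts of both lineages, with a median of 13770 RNA UMIs. Those 57 cells had a median of 8883 RNA UMIs and 42.1% (29.1 to 55.9) had transcripts of both lineages. The other 93 cells with a set seen once had a median of 6456 UMIs and 11.8% (6.05 to 20.2). Doublets and free RNA were not removed, and their part in these cells was not tested.

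The commonest TRA of the largest clone turned up in 14 cells of 14 other clones, and 9 of those cells were 2-TRA cells. It used TRAV7-5 and TRAJ45, and its CDR3 is shown because it belongs to the largest clone.
largest clone TRA (TRAV7-5, TRAJ45): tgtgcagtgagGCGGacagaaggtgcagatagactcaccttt
Of the 150 cells with a set seen once, 79 belonged to clones of 2 or more cells. In 66 of those 79, exactly 1 of the 2 TRA was seen with the same TRB in another cell. In 5 both were, and in 8 neither was.

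Both alpha chains of a recurring 2-TRA cell were read with several UMIs. The chain with more UMIs had a median of 11 and the chain with fewer had 6, with a median ratio of 0.645 (0.600 to 0.680) within a cell. In cells with a set seen once the values were 8 and 4, with a ratio of 0.500 (0.429 to 0.571). The single TRA of a 1-TRA cell had a median of 7 UMIs. Part of this gap follows from sorting the chains by UMIs within a cell.

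The RNA library showed the second chain as well. A UMI of the V segment of the chain with fewer UMIs was found in 39.7% (35 to 44.6) of 2-TRA cells, against 39.8% (37.7 to 41.8) for the V segment of the only TRA in 1-TRA cells. The same V segments were found in a mean of 0.465% of 1-TRA cells whose TRA came from another V family. For the chain with more UMIs the share was 31.4% (27.0 to 36). It was 24.1% (19.1 to 29.6) in recurring 2-TRA cells and 44.7% (36.6 to 53.0) in cells with a set seen once. For the chain with fewer UMIs the shares were 42.7% (36.8 to 48.8) and 34.2% (26.7 to 42.4) in the same order. Many of these V segments have near-identical copies in the locus that the counting could split or drop. The part of such copies in these shares was not tested.

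The J segments of the 2 TRA of a set lay nearer each other along the locus than those of unrelated cells. J segments are numbered against the direction of the locus, so that a high TRAJ number lies nearer the V segments. The median distance between the 2 TRAJ numbers was 9 (7 to 11) over 180 sets, 8 (5 to 13) over the 30 recurring sets and 9.5 (8 to 12) over the 150 sets seen once. It was 14 over all pairs of TRA from different clones among 1-TRA cells. A distance of 5 or less was found in 36.7% of recurring sets, 30.7% of sets seen once and 20.5% of those pairs.

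Across sets the 2 TRAJ numbers went together weakly, with r = 0.50 (Spearman 0.43) over the 30 recurring sets and r = 0.27 (Spearman 0.27) over the 150 sets seen once. Each set entered in both orders, and the points share 1 pool of mice. Set 12 had TRAJ15 in both chains, and set 8 had V segments of the TRAV4 family in both.

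**Figure D4:**
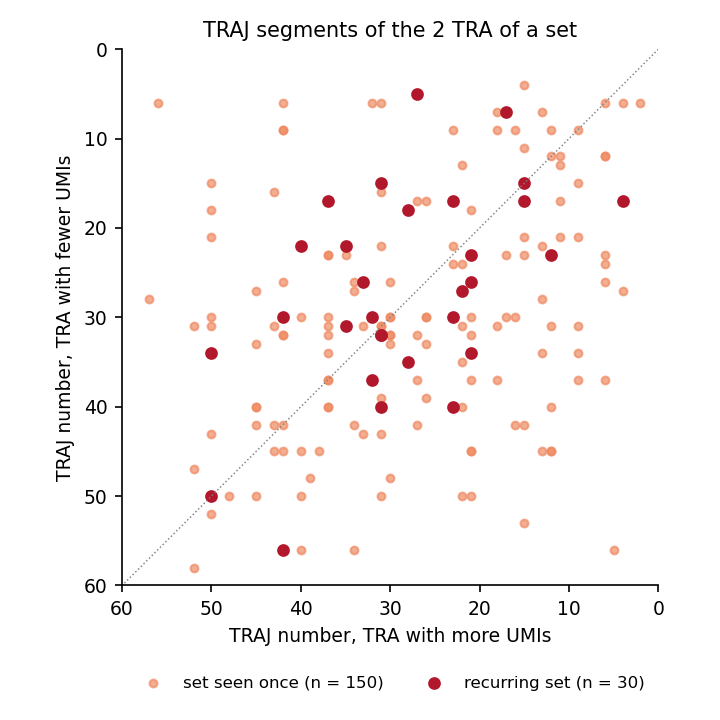
TRAJ number of the TRA with more UMIs (horizontal axis) and of the TRA with fewer UMIs (vertical axis), both axes running from high numbers, nearer the V segments, to low. Large points are the 30 recurring sets, small points the 150 sets seen once, and the dotted line marks equal numbers. The median distance from equal is 8 TRAJ numbers for recurring sets and 9.5 for sets seen once.

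V segment families of the chain with fewer UMIs were led by TRAV6, in 50 of 180 sets, or 27.8%, against 18.5% of 617 distinct TRA of 1-TRA cells. TRAV6 was the family of the chain with more UMIs in 10.0% of the sets. TRAV7 stood at 13.3% of the chains with fewer UMIs and 12.3% of the TRA of 1-TRA cells, TRAV14 at 8.89% and 7.78%, TRAV13 at 7.78% and 8.59%, and TRAV4 at 7.22% and 10.4%. In 10 of 180 sets both TRA came from the same V family.

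Both kinds of cell lay mostly in clones of 2 or more cells. A clone of 2 or more cells held 83.3% (79.4 to 86.7) of 2-TRA cells and 85.1% (83.5 to 86.5) of 1-TRA cells. In the CD4 class the shares were 82.9% and 82.6%, and in the CD8 class 86.9% and 87.9%, in the order 2-TRA cells and 1-TRA cells. Clones of 10 or more cells held 59.7% (54.8 to 64.4) of 2-TRA cells and 63.3% (61.2 to 65.3) of 1-TRA cells. These intervals overlapped.

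The median cell lay in a clone of 25 cells among 2-TRA cells and of 18 among 1-TRA cells. In the CD8 class the medians were 97 and 18, because the clone of set 1, of 97 cells, held 51.8% of the 2-TRA cells. In the CD4 class they were 24 and 15. A recurring set is in a clone of 2 or more by definition, so the lower value of 52.7% for cells with a set seen once is not set against it.

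Genes were compared within the CD4 class and within the CD8 class, as the ratio of summed UMIs per 10000 UMIs in 2-TRA cells over 1-TRA cells, with its exact conditional binomial 95% interval. The UMIs of a cell and the cells of a clone are not independent, so these intervals are too narrow for a statement about cells. The number of cells with a UMI of a gene, or its ratio with 1 cell per clone or without 1 clone, is given where it bears on the value.

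In the CD4 class, 2-TRA cells had more transcripts of type 17 helper genes, which serve the defence of mucosal surfaces. They had fewer of type 2 and early TCR response genes. By summed UMIs per 10000, these differences lay mainly in the 100 recurring 2-TRA cells, from 16 clones. The Th17 list summed to 12.3 in them, 8.83 in the 52 cells with a set seen once and 8.51 in 1-TRA cells. In the same order the type 2 list gave 1.66, 3.70 and 3.57, and the early TCR response list 21.0, 28.1 and 29.5. The Th17 list had 6 of 8 measured genes past 1.5-fold higher in 2-TRA cells and 0 past 1.5-fold lower, where 3.0% of all 7593 genes measured were past 1.5-fold higher and 6.55% past 1.5-fold lower. Its median log2 ratio was 1.01, against a median of -0.01 over all genes measured. Among 1 cell per clone, 3 of the 8 genes were past 1.5-fold higher and 0 lower, where 5.42% of all genes were past 1.5-fold higher and 7.35% past 1.5-fold lower, and the median was 0.29.

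Il22, a cytokine that acts on epithelium, stood at 0.698 UMIs per 10000 in 2-TRA cells and 0.219 in 1-TRA cells, a ratio of 3.19 (2.34 to 4.33). Its UMIs lay in 10 2-TRA cells and 13 1-TRA cells, and all 10 had recurring sets. Il23r, the receptor subunit for IL-23, had a ratio of 3.07 (1.90 to 4.91), with UMIs in 25 and 35 cells of the 2 kinds. Il1r1, an interleukin 1 receptor, had a ratio of 2.31 with UMIs in 33 and 58 cells, and Il17a, the type 17 cytokine, one of 2.01 with UMIs in 12 and 18 cells. The log2 ratio with 1 cell per clone was 1.44 for Il22, 1.19 for Il17a, 0.37 for Il1r1 and 0.04 for Il23r. For Il17a that value came from 7 UMIs in 2-TRA cells and 11 in 1-TRA cells, with an interval of -0.41 to 2.69. Of the UMIs in 2-TRA cells, 42.9% for Il22 and 47.2% for Il17a lay in the clone of set 2. Without that clone the ratio was 5.14 (3.33 to 7.93) for Il22 and 1.42 (0.904 to 2.17) for Il17a.

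Cxcl3, a chemokine that attracts neutrophils, had a ratio of 3.21 (2.28 to 4.52) in the CD4 class, with UMIs in 11 2-TRA cells and 14 1-TRA cells. Other genes at the high end encode actin-binding or metabolic proteins: Actn2 (2.20), Nebl (2.14) and Ckb, a creatine kinase (1.91). Sgip1, an endocytic adaptor, had a ratio of 2.71, and Cd24a, a surface glycoprotein, one of 2.64. With 1 cell per clone the log2 ratio was 1.37 for Sgip1 and 1.27 for Nebl, but 0.20 for Actn2, 0.26 for Cd24a, 0.36 for Ckb and 0.51 for Cxcl3.

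Ccl3, a chemokine for monocytes and T cells, was lowest for its interval in the CD4 class, at 0.263 UMIs per 10000 in 2-TRA cells and 1.61 in 1-TRA cells, a ratio of 0.163 (0.109 to 0.237). The UMIs of Ccl3 lay in 7 of 152 2-TRA cells and 67 of 730 1-TRA cells. Xcl1, which draws cross-presenting dendritic cells, had a ratio of 0.192 with UMIs in 9 and 60 cells. Lgals7, a galectin, had a ratio of 0.164 with UMIs in 8 and 85 cells. Areg, an epidermal growth factor receptor ligand, had a ratio of 0.366 with UMIs in 38 and 243 cells. Scin, an actin-severing protein, had 0 UMIs in 2-TRA cells and 56 in 1-TRA cells. Taking 3 UMIs over the group for the 0, its log2 ratio was -2.16 or lower. The same direction was seen with 1 cell per clone for Ccl3, Xcl1, Lgals7 and Areg, with log2 ratios between -2.84 and -1.57.

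The type 2 helper list had 3 of 6 measured genes past 1.5-fold lower and 0 higher, with a median of -0.83. Gata3, its lineage factor, had a ratio of 0.459 (0.328 to 0.627) with UMIs in 29 2-TRA cells and 214 1-TRA cells. Il4 had a ratio of 0.159 with UMIs in 2 and 34 cells, and Il1rl1, the IL-33 receptor, one of 0.409 with UMIs in 12 and 75 cells. Ikzf2, the factor Helios of regulatory T cells, had a ratio of 0.252 with UMIs in 10 and 145 cells. The type 2 list with 1 cell per clone had a median of -0.81, with 3 of the 6 genes past 1.5-fold lower and 2 higher.

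Early TCR response genes stood lower in CD4-class 2-TRA cells, with 5 of 12 past 1.5-fold lower, 0 higher and a median of -0.46. Nr4a1, an immediate target of TCR signals, stood at 4.48 UMIs per 10000 in 2-TRA cells and 6.73 in 1-TRA cells, a ratio of 0.666 (0.604 to 0.732). Egr3 had a ratio of 0.0820 with UMIs in 1 and 16 cells, and Cd83 one of 0.260 with UMIs in 5 and 46 cells. Taking 1 cell per clone, 4 of the 12 were past 1.5-fold lower and the median was -0.42. Dissociation stress genes, some of them immediate early genes as well, had a median of -0.21 with 2 of 12 past 1.5-fold lower and 0 higher, and Zfp36, an RNA-binding protein of that response, had a ratio of 0.505. The part of dissociation in the early response values was not tested. Proximal TCR signalling genes gave 0 of 18 past 1.5-fold in either direction.

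Cytotoxic genes had 6 of 12 past 1.5-fold lower and 0 higher in the CD4 class, with a median of -0.65. Inhibitory receptor genes had 6 of 8 lower with a median of -0.86. The cytotoxic list summed to 17.9 UMIs per 10000 in recurring 2-TRA cells, 38.4 in cells with a set seen once and 35.7 in 1-TRA cells. In the same order the inhibitory list gave 5.52, 12.0 and 10.5, so on these sums only the recurring cells stood lower. Gzma, granzyme A, had a ratio of 0.482, from ratios of 1.31 in cells with a set seen once and 0.0459 in recurring 2-TRA cells. Ifng, interferon gamma, had a ratio of 0.545, with UMIs in 60 and 284 cells. Pdcd1, which encodes PD-1, had a ratio of 0.552 and Lag3, an inhibitory receptor, 0.565, and their log2 ratios with 1 cell per clone were -0.26 and -0.14. With 1 cell per clone the median of the inhibitory list was -0.03 and that of the cytotoxic list -0.53. Csf2, which encodes GM-CSF, had a ratio of 0.538 (0.430 to 0.668), with UMIs in 13 2-TRA cells and 101 1-TRA cells. Of the other lists in the CD4 class, Treg genes gave 3 of 7 past 1.5-fold lower and 0 higher, GM-CSF helper genes 3 of 7 lower and 1 higher, Th1 genes 1 of 8 lower and 0 higher, and cycling genes 0 of 14 in either direction. Ccr7, a receptor that guides cells to lymph nodes, had a ratio of 2.20 (1.59 to 3.01), but 53.2% of its UMIs in 2-TRA cells lay in the clone of set 2. Without that clone the ratio of Ccr7 was 1.35 (0.866 to 2.04), and its log2 ratio with 1 cell per clone was 0.21.

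Receptor transcripts themselves differed little. Trac, the alpha constant region that both alpha chains share, had a ratio of 1.18 (1.04 to 1.33) within the CD4 class and 1.33 (1.21 to 1.46) within the CD8 class. In the CD8 class 58.2% of its UMIs in 2-TRA cells lay in the clone of set 1. Without that clone the ratio was 1.12 (0.973 to 1.28). Trat1, an adaptor of the TCR complex, was the gene past 1.5-fold, with a ratio of 1.78 (1.52 to 2.08) in the CD4 class. Its UMIs lay in 86 and 283 cells, and its log2 ratio with 1 cell per clone was 0.91. In the CD8 class Trbc2, a beta constant region, had a ratio of 1.37 with all cells and 1.03 without the clone of set 1. Its log2 ratio with 1 cell per clone was -0.28. Cd3g had a ratio of 0.845, and 0.966 without that clone. Rag1, Rag2 and Dntt, the rearrangement genes, had 0 UMIs in both kinds of cell in both classes.

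In the CD8 class 1 clone weighed on each side. The largest clone, with 289 of its 297 cells in this class, had 271 1-TRA cells. No gene ratio was taken without it, and only taking 1 cell per clone limits its part. On the 2-TRA side the comparison was mainly one of the clone of set 1, which held 87 of the 168 2-TRA cells. Gene ratios (or log2 ratios) and list medians without it are therefore given beside the main ones. Cycling genes stood higher in 2-TRA cells, with 2 of 14 past 1.5-fold higher and 0 lower, where 3.33% of 8502 genes measured were past 1.5-fold higher and 6.55% past 1.5-fold lower. Their median log2 ratio was 0.40, against 0.00 over all genes measured, and it was 0.23 without that clone. Taking 1 cell per clone, 3 of the 14 were past 1.5-fold higher and 0 lower, where 4.46% of all genes were past 1.5-fold higher and 6.91% past 1.5-fold lower, and the median was 0.42. Ccnb2, a mitotic cyclin, had a ratio of 1.63 (1.44 to 1.86), Mcm2, a replication helicase subunit, 1.52 (1.25 to 1.85), Birc5, survivin, 1.46, and Hmgb2, a chromatin protein, 1.36. Without the clone of set 1 these ratios were 1.40, 1.49, 1.28 and 1.27 in the same order. Hist1h3g and Hist1h2bn, replication-dependent histones, had ratios of 3.23 and 2.95. Of the UMIs of Hist1h3g in 2-TRA cells, 86.7% lay in the clone of set 1, and its log2 ratio without that clone was -0.18. The ratio of Hist1h2bn without that clone was 3.42 (1.67 to 6.61).

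Inhibitory receptor genes stood lower in the CD8 class, with 3 of 6 past 1.5-fold lower, 0 higher and a median of -0.60. Pdcd1 stood at 3.14 UMIs per 10000 in 2-TRA cells and 5.64 in 1-TRA cells, a ratio of 0.557 (0.506 to 0.612). Lag3 had a ratio of 0.553 and Tox, a factor of chronically stimulated T cells, 0.597. Without the clone of set 1 the list median was 0.05, and the log2 ratios were -0.01 for Pdcd1, -0.12 for Tox and -0.31 for Lag3.

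Tissue residence genes had 4 of 8 past 1.5-fold lower and 1 higher, with a median of -0.47. The median was -0.09 without the clone of set 1, and with 1 cell per clone it turned to 0.19, with 2 of 8 past 1.5-fold higher and 0 lower. Cxcr6, a homing receptor of resident T cells, had a ratio of 0.555, and 0.772 without that clone, and Itga1, a collagen-binding integrin, 0.438, and 0.729 without it. Ccl5, a chemokine abundant in CD8 T cells, stood at 74.7 UMIs per 10000 in 2-TRA cells and 127.5 in 1-TRA cells, a ratio of 0.586 (0.575 to 0.597), and its log2 ratio without that clone was -0.36. Prf1, perforin, had a ratio of 0.697 and a log2 ratio of 0.08 without that clone, and Gzmk, granzyme K, a ratio of 1.25 and a log2 ratio of -0.04. Gzma had a ratio of 0.633, and 0.766 without that clone. Slamf6, a receptor of less differentiated T cells, had a ratio of 1.71, but 68.7% of its UMIs in 2-TRA cells lay in that clone and the ratio was 1.08 (0.654 to 1.70) without it.

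At the low end of the CD8 class was Csf1, the macrophage growth factor, with a ratio of 0.135. Its UMIs lay in 6 of 168 2-TRA cells and 130 of 1095 1-TRA cells. Ccl1, a chemokine, had a ratio of 0.154 with UMIs in 4 and 31 cells. Gzmf, a granzyme, had a ratio of 0.168 with UMIs in 2 and 32 cells. Tcrg-C2, a gamma chain constant region, had a ratio of 0.263, Anxa1, annexin A1, 0.280, Lta, lymphotoxin alpha, 0.125 with UMIs in 2 2-TRA cells and 31 1-TRA cells, and Capg, an actin-capping protein, 0.367. Without the clone of set 1 these ratios were nearer 1, at 0.271 for Csf1, 0.308 for Ccl1, 0.336 for Gzmf, 0.527 for Tcrg-C2, 0.494 for Anxa1, 0.249 for Lta and 0.657 for Capg. Syce1, known from meiosis, had a ratio of 0.0803, with UMIs in 3 2-TRA cells and 120 1-TRA cells, and a ratio of 0.162 without that clone. Taken from 1 cell per clone, it had 3 UMIs in 2-TRA cells and 2 in 1-TRA cells.

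For Csf2 and Fos, at the high end of the CD8 class, the ratio was higher in cells with a set seen once than in recurring 2-TRA cells. Csf2 had a ratio of 4.28 (3.01 to 6.07), with UMIs in 11 2-TRA cells and 26 1-TRA cells. Without the clone of set 1 the ratio of Csf2 was 8.16 (5.72 to 11.6). Its ratio was 13.3 in cells with a set seen once, from 8 cells, and 0.377 in recurring 2-TRA cells, from 3 cells. Fos, an immediate early gene, had a ratio of 1.92 over all 2-TRA cells, and 2.39 without the clone of set 1. Its ratio was 3.23 in cells with a set seen once and 1.35 in recurring 2-TRA cells. Arrdc4, an arrestin-domain protein, had ratios of 2.70 and 3.30 in the same order, with intervals that overlapped. Of its UMIs in 2-TRA cells 73.9% lay in the clone of set 1, and its ratio without that clone was 1.63 (0.559 to 3.9).

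Lyz2, lysozyme of myeloid cells, had a ratio of 3.69 (2.69 to 5.06) in the CD8 class, H2-Aa, an MHC class II chain, 4.20, and Cd74, the class II invariant chain, 2.75. Without the clone of set 1 these ratios were 6.35, 7.85 and 4.93. In cells with a set seen once the ratios were 7.28, 9.89 and 6.33, from only 6, 2 and 7 cells with a UMI of Lyz2, H2-Aa and Cd74. In recurring 2-TRA cells they were 2.14, 1.74 and 1.21, from 9, 5 and 12 cells. The 10 macrophage markers summed to 0.744 UMIs per 10000 in CD8-class 2-TRA cells, 0.509 in the recurring ones and 1.29 in those with a set seen once, against 0.439 in 1-TRA cells. Csf1r, Fcgr1 and Ms4a7 were at 0 in the 2-TRA cells and Adgre1 in the 1-TRA cells. In the CD4 class the markers summed to 0.209 in 2-TRA cells and 0.416 in 1-TRA cells, where Cd74 had a ratio of 0.283, and Adgre1, Csf1r and Fcgr1 were at 0 in the 2-TRA cells. The part of macrophage RNA in these ratios was not tested.

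**Figure D5:**
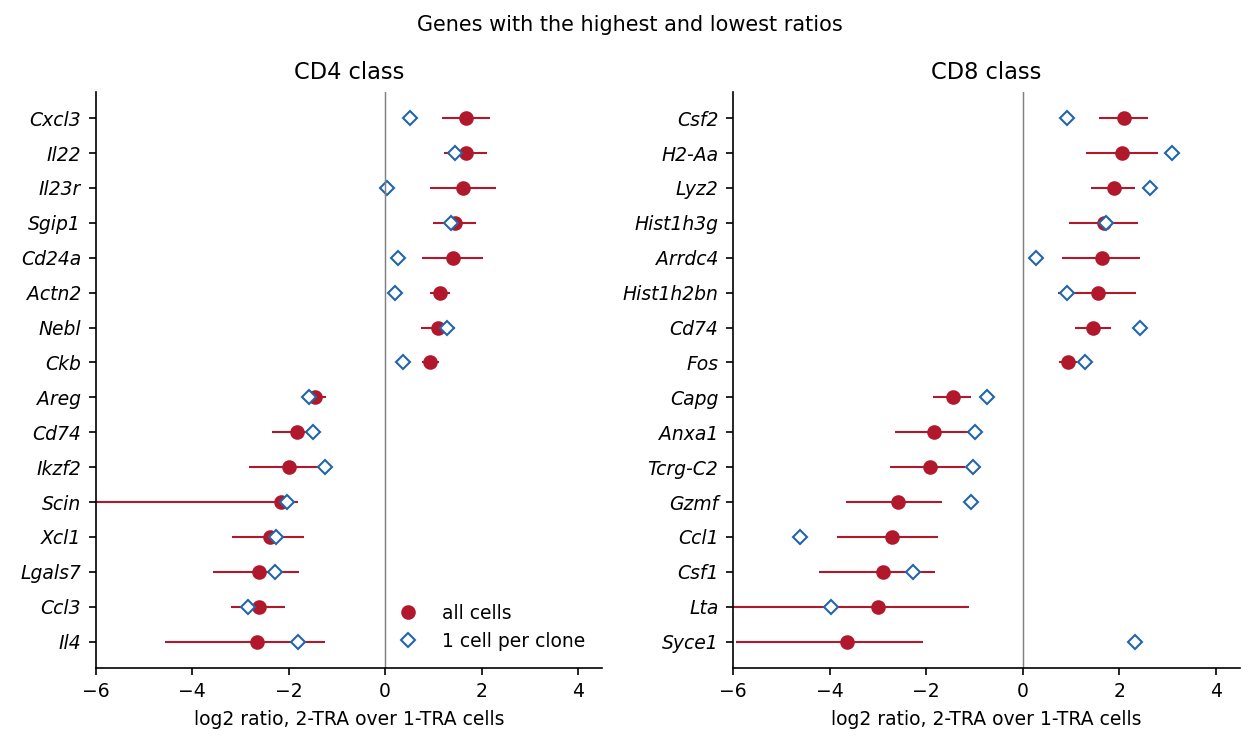
Log2 ratio of 2-TRA over 1-TRA cells (horizontal axis) for the 8 highest-ranked and 8 lowest-ranked genes, ranked by whichever end of the interval lies closer to 1, in the CD4 class (left) and the CD8 class (right). Filled points with bars are all cells with the exact 95% interval, cut at -6, and open diamonds are 1 cell per clone. Scin has 0 UMIs in 2-TRA cells and is drawn at the value 3 UMIs would give. Il23r lies at 1.62 with all cells and 0.04 with 1 cell per clone, and Syce1 changes side.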

How the data were processed

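The authors deposited UMI counts per gene and cell, and a table of TCR contigs with reads and UMI counts. Both were made with Cell Ranger on build mm10, per the submitters' processing notes; its version, and any doublet removal, are not stated in the sources used here, and no doublet caller was run here. Counts were read as deposited (31053 genes, 2549 to 39138 UMIs per barcode) and 15 barcodes were left out by the filters. Contigs were joined by barcode. TRA and TRB contigs marked productive were counted, all of them full length and high confidence. Gene levels were summed raw counts per 10000 UMIs for genes with 50 or more UMIs over both kinds of cell. Genes named were the 8 highest and 8 lowest per class by the bound nearest 1, among those with UMIs in 20 or more cells, and up to 4 members per list of 3 or more measured genes. TCR segment, immunoglobulin, mitochondrial, ribosomal, predicted and class-defining genes were left out. Thinning drew 2000 UMIs per cell. The limit for a count of 0 was 3 counts. The question, lists and rules were chosen with earlier results of these data known. Scripts used pandas 2.3.3, scipy 1.17.1, numpy 2.4.6, matplotlib 3.10.9 and Python 3.11.15, and interval code was tested on simulated data.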

Additional observations from a re-analysis of the deposited data

Results flagged for a closer look

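Of the 5990 barcodes of the TCR table, which go beyond the cells compared above, 847 were not in the expression matrix. Among 329 of those with 1 TRB and 1 or 2 TRA, 21 had 2 TRA, or 6.38% (3.99 to 9.59), against 16.3% (14.9 to 17.7) among the kept cells. Of these 21, 14 held the same TRB and both TRA as a 2-TRA cell, and 9 held a recurring set. What these barcodes are was not tested.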

How the results depend on the processing

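The share of 2-TRA cells was 18.0% without the largest clone and, in an alternative chosen after seeing the data, 13.4% without the clone of set 1; the CD8 class gave 16.5% and 6.93%. That added alternative also gave a recurring share of 55.4% and a clone share (2 or more cells) of 78.9%. Other cell filters, contig rules and 1 cell per clone left all 3 shares of 2-TRA cells within their main intervals. The share with both lineages was 2.36% after thinning. The depth ratio was 1.14 within the CD4 class and 1.47 within the CD8 class. Genes past 1.5-fold were 725 of 7593 measured (9.55%) in the CD4 class and 840 of 8502 (9.88%) in the CD8 class. With a minimum of 200 UMIs they were 110 of 3869 (2.84%) and 190 of 5154 (3.69%). With a minimum of 1 UMI they were 4644 of 13571 (34.2%) and 4913 of 13954 (35.2%). With only recurring sets (added after seeing the data) they were 1171 of 7436 (15.7%) and 1288 of 8412 (15.3%). Against 1-TRA cells with a TRA contig not marked productive the CD4 class had 432 of 5744 (7.52%). Signs turned for the CD4 cycling list (log2 -0.16 with 1 cell per clone, -0.18 without the largest clone among 2-TRA cells), and in the CD4 class for Cxcl3 (-0.79, class set on thinned cells) and Cd74 (0.032, against 1-TRA cells with a TRA contig not marked productive). In the CD8 class they turned with 1 cell per clone for Syce1 (2.32), Trbc2 (-0.28), Prf1 (0.27) and Itga1 (0.15) and the tissue residence list (0.19), without the largest clone among 2-TRA cells for the inhibitory list (0.054), Hist1h3g (-0.18), Prf1 (0.083) and Gzmk (-0.038), for Csf2 with only recurring sets (-1.41), and for Ccl1 with the class set on thinned cells (1.08). Beyond the omissions of cells or clones these settings make, the cause was not tested. A gene at 0 UMIs under a setting was given no value. No analysis paired by mouse was possible because there is 1 pool of mice, and gene ratios were not paired by clone. The 2-TRA share was higher in deeper cells, so it is a share at this depth.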

Other observations

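The share of 2-TRA cells was also taken in cells split by single transcripts at 2000 UMIs. In the CD4 class 2-TRA cells were 5.61% (2.09 to 11.8) of cells with a UMI of Gata3, the type 2 lineage factor, and 18.8% (16.1 to 21.8) of cells without one. They were 14.1% (7.26 to 23.8) of cells with a UMI of Csf2 and 17.5% (15 to 20.3) of cells without, and those intervals overlapped. In 11 cells with a UMI of Foxp3, the regulatory T cell factor, 0 were 2-TRA cells, which allows a share of up to 27.3%.

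In the CD8 class 2-TRA cells were 7.46% (4.73 to 11.1) of cells with a UMI of Prf1 and 15.1% (12.9 to 17.5) of cells without. Recurring sets alone were 4.07% and 11.2% of the same cells, and the clone of set 1 held 87 of the 120 recurring 2-TRA cells of this class. Without that clone the log2 ratio of Prf1 was 0.083. 2-TRA cells were 17.5% (12.9 to 23.0) of cells with a UMI of Mki67, a marker of dividing cells, and 12.3% (10.4 to 14.5) of cells without. Those intervals overlapped, and the 30 recurring 2-TRA cells with a UMI of Mki67 came from 6 clones. A further 105 kept cells held 2 TRA and no TRB, and they belong to neither kind of cell.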
